A study of Mus musculus with 112 samples.

Results

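The ATP-sensitive potassium (KATP) channel is built from 4 genes in the mouse, and each was followed here across 14 strain and diet groups. Abcc8 and Abcc9 encode the regulatory sulfonylurea receptors SUR1 and SUR2, and Kcnj11 and Kcnj8 encode the pore-forming inward rectifiers Kir6.2 and Kir6.1. The members were taken by gene symbol from probe sets that the platform annotation gives to exactly 1 gene, and where a gene had several the one of highest mean over all arrays was to be used. Each of the 4 genes had 1 probe set, so that no choice between probe sets arose, and they are 4 of the 19938 genes measured. The genes were chosen by family, but the family was selected on measured values, the CR difference of Abcc8: it was taken up with the decrease of Abcc8 under calorie restriction (CR) already known from these arrays. The CR difference of Abcc8 is therefore given below as a description with no test.

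The arrays held cortex RNA of 112 male mice, each mouse on an array of its own, from 7 strains that each gave 8 mice on a control diet and 8 on CR. They were the hybrid B6C3F1/J, its parental strains C57BL6/J and C3H/HeJ, and the inbred CBA/J, DBA/2J, Balbc/J and 129S1/SvImJ. In every group the mice came at 6 weeks of age to single cages, received an AIN93M type diet at 84 kcal weekly up to week 8, when the diets parted, and were killed at 22 weeks after a night of fasting. By the study's methods the amount of food differed by strain: the Balbc/J portions were larger on both diets, and in C57BL6/J and 129S1/SvImJ the CR portion was cut a further time later on. Values are log2 RMA signals, in which RMA is a method that corrects background, equalises arrays and summarises the probes of a gene, and a difference of 1 log2 unit is a doubling. Signals of different genes come from different probes and are not compared with each other as levels.

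KATP channels open when ATP falls relative to ADP, and so tie the membrane potential of a cell to its energy supply. An octamer of Kir6 pore subunits and SUR subunits is needed for a working channel at the cell surface. In pancreatic beta cells the pair SUR1 and Kir6.2 couples glucose to insulin release, and the same pair is found in many neurons. SUR2 and Kir6.1 are known from vascular smooth muscle and pericytes, where their opening relaxes vessels. The receptor genes lie next to their pore partners in the mouse genome, Abcc8 beside Kcnj11 on chromosome 7 and Abcc9 beside Kcnj8 on chromosome 6.

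RefSeq promoter windows, from 250 bases before to 50 bases after the start of the gene, were matched for 2 of the 4 members, Kcnj8 and Abcc9. They are shown because these genes are neighbours on the same strand whose signals are set against each other below. Both are written 5′ to 3′ on the minus strand of GRCm38.p6, Kcnj8 at chr6:142571565-142571864 and Abcc9 at chr6:142702225-142702524, and capitals mark a match to the MEF2 motif, the binding consensus of a muscle and neuron transcription factor family.
Kcnj8: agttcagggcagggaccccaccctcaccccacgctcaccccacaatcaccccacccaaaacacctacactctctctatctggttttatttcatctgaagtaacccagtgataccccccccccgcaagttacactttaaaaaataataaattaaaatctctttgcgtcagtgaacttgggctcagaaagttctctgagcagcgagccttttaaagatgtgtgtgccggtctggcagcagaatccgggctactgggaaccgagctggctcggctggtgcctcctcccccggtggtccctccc
Abcc9: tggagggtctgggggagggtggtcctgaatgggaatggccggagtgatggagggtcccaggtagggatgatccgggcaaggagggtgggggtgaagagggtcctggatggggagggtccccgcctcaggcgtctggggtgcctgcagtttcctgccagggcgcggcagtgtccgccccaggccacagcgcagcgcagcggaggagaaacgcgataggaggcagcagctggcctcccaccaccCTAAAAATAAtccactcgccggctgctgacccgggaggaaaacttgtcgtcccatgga
The Abcc9 window was 65.7% G and C with 16 CpG dinucleotides, and the Kcnj8 window 53.3% with 9, against medians of 52.7% and 7 over the 32851 promoters in the table. On both strands, 4 motifs were searched: MEF2, the serum response motif CArG, TATAAA and CCAAT. The Abcc9 window held the MEF2 match CTAAAAATAA, which begins 8 bases before the start of the gene and was read on both strands as the same site, with no overlap with another motif. The other motifs had no match in this window, and none of the 4 motifs was found in the Kcnj8 window. MEF2 matches occurred in 3.19% of all promoters, CArG in 1.63%, TATAAA in 13.6% and CCAAT in 37.4%, and such a match describes the sequence and is not a measured binding site.

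Over the 112 arrays Abcc8 had a mean of 8.69 log2 units, above 72.5% of all genes, and ranged from 8.26 to 9.38. Kcnj11 averaged 8.04, above 59.9% of genes. Abcc9 averaged 7.23 and Kcnj8 7.16, above 44.1% and 42.6% of genes, and both lay below the median gene at 7.53. These percentiles place each probe set among all others and do not order the amounts of RNA. Excitatory neuron transcripts were abundant in the tissue as labelled: Slc17a7, the vesicular glutamate transporter that defines them, had strain medians of 12.1 to 12.2 log2 units.

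The spread of each gene was divided among its sources. Strain accounted for 65.1% of the sum of squares of Kcnj11 and 62.7% of that of Abcc9, against 23.6% for the median gene. It accounted for 15.7% of that of Abcc8 and 17.6% of that of Kcnj8. Diet held 10.0% of the sum of squares of Abcc8, 1.40% of Kcnj11, 0.650% of Kcnj8 and 0.241% of Abcc9, with the median gene at 0.471%. Mice of the same group differed most in Abcc8, with a residual SD of 0.194 that was larger than in 85.3% of genes, and least in Abcc9, with 0.0793. A receptor and a pore gene thus varied mainly by strain. The other receptor and the other pore gene varied mainly between mice of the same group, as the median gene did. Those shares within groups were 73.3% for Abcc8 and 78.9% for Kcnj8, against 70.7% for the median gene.

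**Figure D1:**
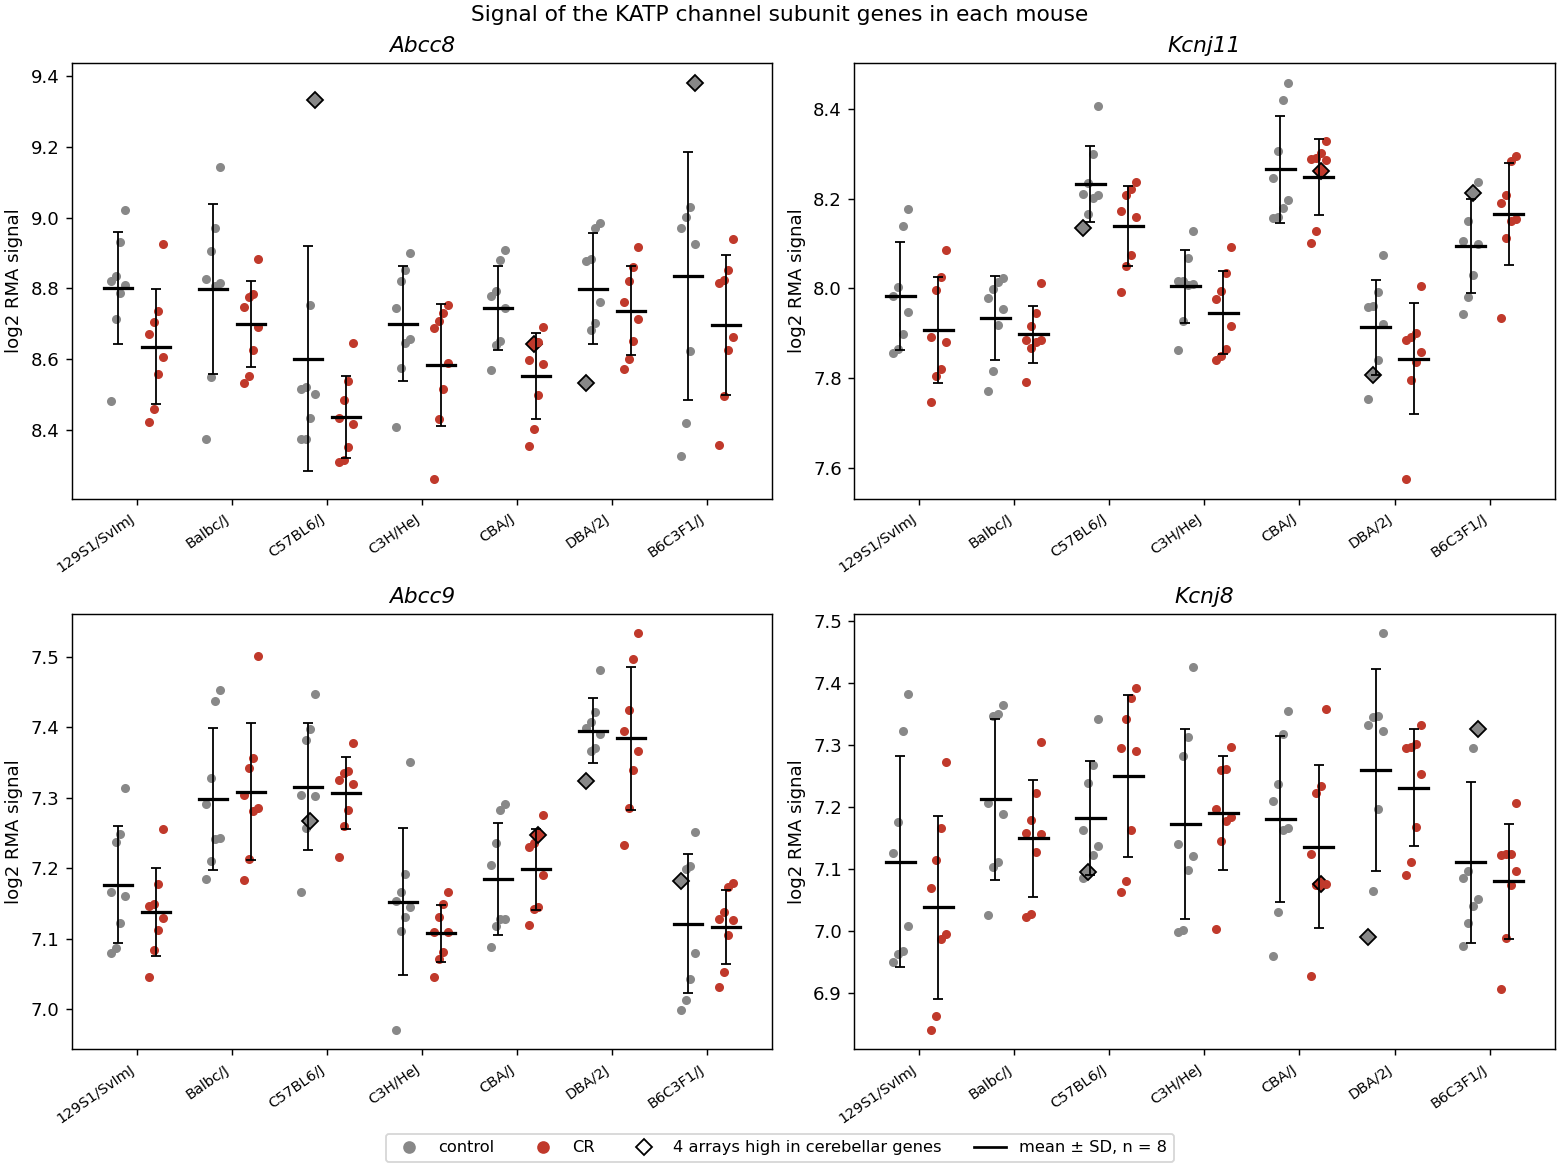
Log2 RMA signal of Abcc8, Kcnj11, Abcc9 and Kcnj8 (y axis, a separate scale in each panel) in every mouse, by strain (x axis), with control mice in grey and CR mice in red. Bars give the mean ± SD of the 8 mice of a group and diamonds the 4 arrays high in cerebellar genes. In Kcnj11 and Abcc9 the strains sit at different heights, and in Abcc8 the CR mean lies below the control mean in 7 of 7 strains.

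Arrays that stood apart bear mainly on Abcc8. Replicate 6 of the C57BL6/J control mice had a mean of 12 cerebellar genes 3.43 log2 units above the rest of its group, and replicate 8 of the B6C3F1/J control mice one 3.47 above. Their means of 9 excitatory neuron genes differed by -1.85 and -1.61. They also held the highest Abcc8 signals of all, 9.33 and 9.38, while the other 7 mice of these groups lay between 8.37 and 8.75 and between 8.33 and 9.03. Replicate 6 of the CBA/J CR mice and replicate 8 of the DBA/2J control mice were higher in cerebellar genes by 1.16 and 1.38. In them Abcc8 differed by 0.10 and -0.31 from the mean of the other mice of the group, and Kcnj8 in the DBA/2J mouse by -0.31. All 4 arrays were kept unless they are said to be left out, and the part of cerebellar tissue in the Abcc8 values was not tested.

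The first comparison asked whether CR altered the channel genes over all strains. Abcc8 was lower in CR mice by 0.13 ± 0.036 log2 units (SE, 56 mice per diet), a change of -8.90% with a 95% confidence interval of -0.21 to -0.063 log2 units. It was lower in 7 of 7 strains, a pattern shown by 2.31% of all genes, and 45 of 56 CR mice lay below the control mean of their own strain. In a piece of tissue, fewer cells of a type and less RNA per cell cannot be told apart. The decrease is the observation for which these genes were taken up, so no p-value is attached to it. Its interval, the share of genes and the count of mice come from the same values and describe the decrease without testing it. Leaving out the 2 arrays highest in cerebellar genes gave -0.11 log2 units, and leaving out all 4 gave -0.12.

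With all arrays, the Abcc8 difference ranged from -0.062 in DBA/2J to -0.19 in CBA/J, each with a standard error of 0.096. In CBA/J the control mice ran from 8.57 through a median of 8.76 to 8.91, and the CR mice from 8.35 through 8.59 to 8.69. In 129S1/SvImJ the control mice had a lowest, median and highest signal of 8.48, 8.82 and 9.02, and the CR mice 8.42, 8.64 and 8.93, a difference of -0.17. In these strains the CR medians lay below the control medians, but the ranges overlapped. In C3H/HeJ the control mice spanned 8.41 to 8.90 with a median of 8.70 and the CR mice 8.26 to 8.75 with a median of 8.64. In Balbc/J they spanned 8.37 to 9.14 with a median of 8.82 on the control diet and 8.53 to 8.88 with a median of 8.72 on CR. In both strains, as in the others, the highest control mouse exceeded every CR mouse. In Balbc/J the lowest control mouse also lay below every CR mouse. The differences were -0.12 in C3H/HeJ and -0.10 in Balbc/J.

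C57BL6/J and B6C3F1/J hold the 2 arrays highest in cerebellar genes. In C57BL6/J the Abcc8 signals ran from 8.37 through a median of 8.51 to 9.33 in control mice and from 8.31 through 8.42 to 8.65 in CR mice. In B6C3F1/J they ran from 8.33 through 8.95 to 9.38 and from 8.36 through 8.74 to 8.94. The difference was -0.17 in C57BL6/J and -0.14 in B6C3F1/J with all arrays. Without those 2 arrays it was -0.060 in C57BL6/J and -0.061 in B6C3F1/J. In DBA/2J the control mice lay between 8.53 and 8.99 with a median of 8.82 and the CR mice between 8.57 and 8.92 with a median of 8.74. The lowest of these control mice was replicate 8, also high in cerebellar genes, and with all 4 such arrays left out the DBA/2J difference was -0.10 and that of CBA/J -0.21, so that C57BL6/J and B6C3F1/J then had the smallest differences. In 0 of 7 strains were CR and control mice without overlap in Abcc8, as for all but 0.507% of genes.

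Kcnj11, the pore partner of Abcc8, differed by -0.040 ± 0.019 log2 units across strains (limma, adjusted p = 0.316), with a 95% confidence interval of -0.078 to -0.0017. Its mean was lower in CR in 6 of 7 strains, as in 10.3% of genes that were lower in at least 6, and 35 of 56 CR mice lay below the control mean of their strain. The exception was B6C3F1/J, where the difference was 0.071, and the largest decrease was -0.093 in C57BL6/J. Abcc9 differed by -0.012 ± 0.015 (limma, adjusted p = 0.813), with an interval of -0.043 to 0.019. Kcnj8 differed by -0.022 ± 0.024 (limma, adjusted p = 0.773), with an interval of -0.070 to 0.026. Thus 0 of these 3 genes were called by limma at an adjusted p under 0.05 while 2.34% of all genes were (1.17% lower and 1.17% higher in CR), and 1 of the 3, Kcnj11, had an unadjusted p under 0.05, at 0.0407.

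Within single strains the same held. Over the 21 differences of Kcnj11, Abcc9 and Kcnj8 in 7 strains limma called 0, with 0 at an unadjusted p under 0.05 and a smallest adjusted p of 0.509, while 0.191% of all genes were called in at least 1 strain. Abcc9 differences ran from -0.045 in C3H/HeJ to 0.014 in CBA/J, and those of Kcnj8 from -0.073 in 129S1/SvImJ to 0.068 in C57BL6/J. By the methods' t-test at an unadjusted p under 0.01, these 3 genes were counted in 0 strains, while 10.9% of all genes were counted in at least 1. The strain by diet interaction, the test of whether the CR difference varied between strains, called 0 of the 4 genes (limma, lowest adjusted p = 0.999) and 0.0401% of all genes. For Abcc8 the differences of single strains had wide intervals, such as -0.38 to -0.0029 in CBA/J and -0.25 to 0.13 in DBA/2J.

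**Figure D2:**
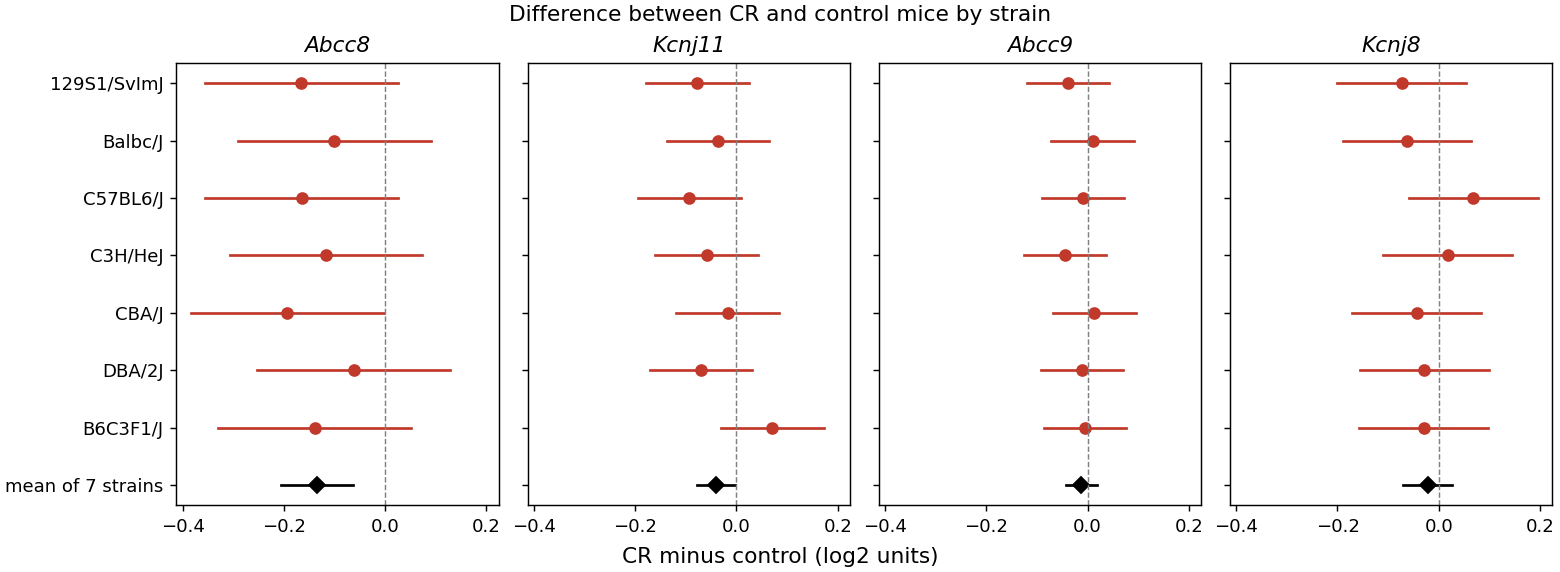
Difference between CR and control mice in log2 units (x axis) for each gene, by strain (y axis), with 95% confidence intervals and the mean of the 7 strains as a black diamond. The Abcc8 points all lie below 0, from -0.19 to -0.062, while those of Kcnj11, from -0.093 to 0.071, of Abcc9, from -0.045 to 0.014, and of Kcnj8, from -0.073 to 0.068, lie on both sides of 0.

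The second comparison asked how the channel genes differ between strains on the same diet. Among control mice, Kcnj11 (limma, adjusted p = 2.22e-11) and Abcc9 (limma, adjusted p = 1.52e-09) differed between strains. Abcc8 (limma, adjusted p = 0.256) and Kcnj8 (limma, adjusted p = 0.278) did not pass the test. Strain differences were common, with 65.4% of all genes called in control mice, so that 2 of 4 members is no more than the background. Kcnj11 and Abcc9 stood out more in the number of strain pairs: each had 12 of 21 pairs called, against 4 for the median gene, and 10.2% of genes had at least 12. A single pair of strains was called in 8.81% to 55.4% of all genes in control mice and in 8.92% to 41.9% in CR mice, depending on the pair. Probes follow the sequence of a reference mouse, and the part of sequence differences between strains in these signals was not tested.

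Kcnj11 was highest in CBA/J, with a control mean of 8.26 ± 0.12 (SD, n = 8), and next in C57BL6/J with 8.23 ± 0.085. B6C3F1/J followed with 8.09, C3H/HeJ with 8.00, 129S1/SvImJ with 7.98 and Balbc/J with 7.93. DBA/2J was lowest with 7.91 ± 0.11, which is 1.28-fold below CBA/J. Of the neighbours in this order, only C57BL6/J and B6C3F1/J passed the test of their means, with a difference of 0.14 log2 units (limma, adjusted p = 0.0330). The ranges of their mice overlapped. The control mice of CBA/J ran from 8.16 through a median of 8.22 to 8.46. Those of C57BL6/J ran from 8.13 through 8.21 to 8.41. Those of DBA/2J ran from 7.75 through 7.94 to 8.08, so that every CBA/J and C57BL6/J mouse lay above every DBA/2J mouse. In all, 6 of the 21 pairs of control groups did not overlap in Kcnj11, while 30.8% of genes had at least 1 such pair and 11.4% at least 4.

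The order of Kcnj11 was much the same on CR. CBA/J was again highest at 8.25 ± 0.084 and DBA/2J lowest at 7.84 ± 0.12, a 1.32-fold range (limma, strains among CR mice, adjusted p = 9.56e-14). B6C3F1/J, with 8.17, now stood above C57BL6/J with 8.14, by 0.027 log2 units, which did not pass the test (limma, adjusted p = 0.745). The neighbours C57BL6/J and C3H/HeJ differed by 0.19 (limma, adjusted p = 0.00314), which set an upper 3 strains apart from a lower 4. All 12 pairs that joined an upper with a lower strain were called, and 0 pairs inside either set. The sets were cut at this gap in the same means, so these counts describe the split and do not test it. In control mice the same split was less clear, with 10 of these 12 pairs called and 2 pairs called inside a set. CR mice of CBA/J ran from 8.10 through 8.29 to 8.33, those of B6C3F1/J from 7.93 through 8.17 to 8.30 and those of C57BL6/J from 7.99 through 8.17 to 8.24. The lower strains had CR medians of 7.95 in C3H/HeJ, 7.89 in both 129S1/SvImJ and Balbc/J, and 7.87 in DBA/2J. CBA/J did not overlap with any of these 4 strains. The 12 called pairs of Kcnj11, of 21 in all, compare with 3 for the median gene, and 8.23% of genes had at least 12. On CR 33.9% of genes had at least 1 pair of groups without overlap and 15.5% had at least 4, while Kcnj11 had 4.

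Abcc9 had another order. DBA/2J, lowest in Kcnj11, was highest in Abcc9, with a control mean of 7.39 ± 0.046 (SD, n = 8) and mice from 7.32 through a median of 7.39 to 7.48. C57BL6/J with 7.32 and Balbc/J with 7.30 came next. Then CBA/J with 7.18, 129S1/SvImJ with 7.18, C3H/HeJ with 7.15 and B6C3F1/J with 7.12 formed a lower set. Between the sets, the means of Balbc/J and CBA/J differed by 0.11 log2 units (limma, adjusted p = 0.0353), with overlapping mice. No other neighbours in the order passed the test. Control mice of B6C3F1/J ran from 7.00 through 7.13 to 7.25, which left no overlap with DBA/2J and a range of 1.21-fold. DBA/2J also did not overlap with CBA/J or 129S1/SvImJ, which makes 3 of 21 pairs. In control mice 30.8% of genes had at least 1 such pair.

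On CR the Abcc9 strains kept their upper and lower sets (limma, strains among CR mice, adjusted p = 7.05e-11). DBA/2J had 7.38 ± 0.10, Balbc/J 7.31 and C57BL6/J 7.31, and CBA/J followed with 7.20, lower than C57BL6/J by 0.11 (limma, adjusted p = 0.0332). 129S1/SvImJ had 7.14, B6C3F1/J 7.12 and C3H/HeJ 7.11 ± 0.041. The CR mice of C3H/HeJ ran from 7.05 through 7.11 to 7.17 and those of C57BL6/J from 7.22 through 7.32 to 7.38, so that these groups did not overlap. Such separation was seen in 6 of the 21 pairs, while 33.9% of genes had at least 1 such pair in CR mice and 15.5% at least 4. On both diets the 12 called pairs were those between DBA/2J, C57BL6/J or Balbc/J and the other 4 strains, and 0 pairs inside either set were called. These sets too follow the order of the means, and the counts describe them without a test. Strain differences in both diets were called in 50% of all genes, Kcnj11 and Abcc9 among them.

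**Figure D3:**
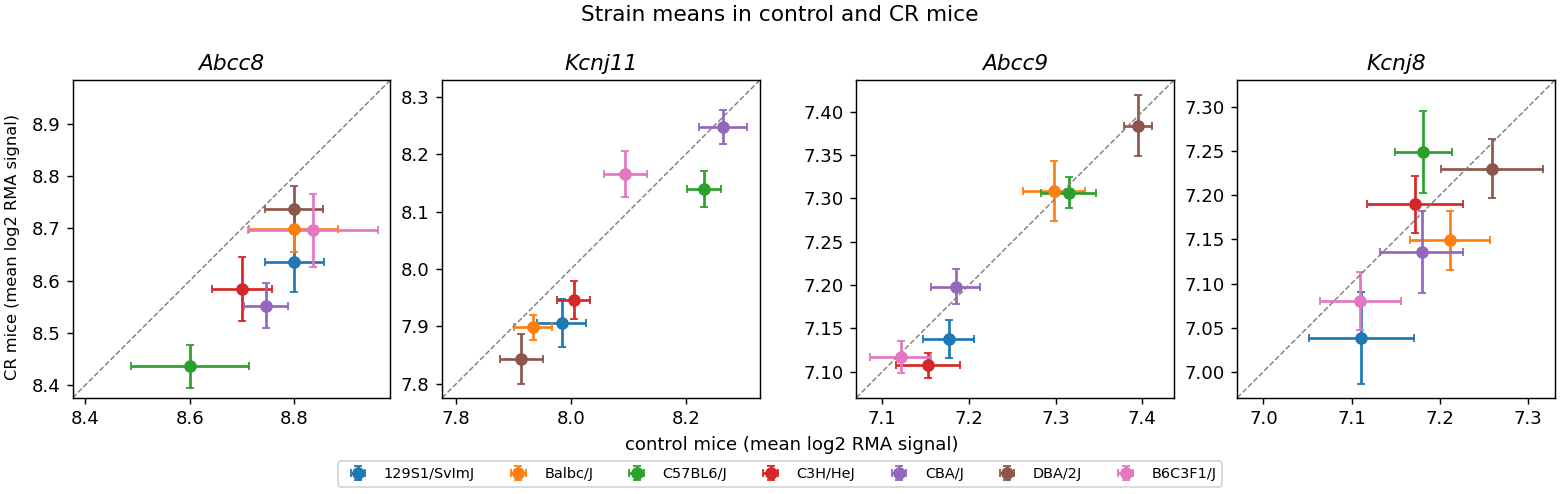
Mean log2 RMA signal of each strain in CR mice (y axis) against control mice (x axis), with SE bars (n = 8 mice) and a dashed line of equal signal, on separate scales for the 4 genes. The Kcnj11 and Abcc9 means run along the line from DBA/2J at 7.91 to CBA/J at 8.26 and from B6C3F1/J at 7.12 to DBA/2J at 7.39, while all Abcc8 means lie below it.

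Abcc8 and Kcnj8 differed less between strains. The Abcc8 control means ran from 8.60 in C57BL6/J to 8.84 in B6C3F1/J, with 0 of 21 pairs called, neighbours in the order included. These are the groups with the highest single arrays, and without those 2 arrays the strains differed in Abcc8 (limma, adjusted p = 0.0140). In CR mice Abcc8 did not pass the test (limma, adjusted p = 0.0582), with C57BL6/J lowest at 8.44 and DBA/2J highest at 8.74. Among pairs, C57BL6/J lay below DBA/2J by 0.30 (limma, adjusted p = 0.0130) and below B6C3F1/J by 0.26 (limma, adjusted p = 0.0352). C57BL6/J was thus at the low end of Abcc8 on both diets and near the top of Kcnj11, but no test compared these places.

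Kcnj8 control means lay between 7.11 in B6C3F1/J and 7.26 in DBA/2J, and the lowest and highest single mice of all control groups were at 6.95 and 7.48. In CR mice the strains differed (limma, adjusted p = 0.0238), as did 56.8% of all genes. C57BL6/J, with mice from 7.06 through 7.29 to 7.39, lay above 129S1/SvImJ, with mice from 6.84 through 7.03 to 7.27, by 0.21 (limma, adjusted p = 0.00498). DBA/2J was higher than 129S1/SvImJ by 0.19 (limma, adjusted p = 0.0196) and C57BL6/J higher than B6C3F1/J by 0.17 (limma, adjusted p = 0.0404). The ranges of these groups overlapped, and no neighbours in the order passed the test. Without 129S1/SvImJ the strains did not pass the test in CR mice (adjusted p = 0.118), nor without C57BL6/J (adjusted p = 0.0839).

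The third comparison concerned B6C3F1/J, the F1 hybrid of C57BL6/J and C3H/HeJ. It asks whether the hybrid signal equals the mean of both parental strains. In control mice Abcc9 was lower in the hybrid by 0.11 ± 0.035 log2 units (limma, adjusted p = 0.0177), and the other 3 genes did not pass the test, while 16.2% of all genes did (9.77% lower and 6.39% higher in the hybrid). The hybrid mean of 7.12 lay beside C3H/HeJ at 7.15, with a difference of 0.031 that did not pass the test (limma, adjusted p = 0.738), and below C57BL6/J at 7.32 by 0.19 (limma, adjusted p = 0.000111). In CR mice the Abcc9 difference from the mean of the parents was -0.090 (limma, adjusted p = 0.0622). C57BL6/J was again higher than the hybrid by 0.19 (limma, adjusted p = 0.000142), and C3H/HeJ differed by -0.0090 (limma, adjusted p = 0.935). The Abcc9 signal of the hybrid thus differed from C57BL6/J on both diets, and its difference from C3H/HeJ had a 95% confidence interval of -0.050 to 0.11 (C3H/HeJ minus hybrid) in control and -0.090 to 0.072 in CR mice.

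Kcnj11 in the hybrid lay between its parents in control mice, at -0.024 from their mean (limma, adjusted p = 0.751). In CR mice it was higher than their mean by 0.12 ± 0.044 (limma, adjusted p = 0.0385), where 18% of all genes were called (10.5% lower and 7.46% higher in the hybrid). This comparison was added after the data were seen, and the call was lost when arrays were centred on their median (0.092, limma, adjusted p = 0.133) or the excitatory neuron mean was a covariate (0.10, limma, adjusted p = 0.0657). The hybrid CR mean of 8.17 was close to that of C57BL6/J at 8.14 and above that of C3H/HeJ at 7.95 by 0.22 (limma, adjusted p = 0.00113). The change of this difference between diets was not tested for the hybrid alone. Abcc8 was above the mean of the parents by 0.18 in control mice (limma, adjusted p = 0.116) and 0.19 in CR mice (limma, adjusted p = 0.111). Kcnj8 differed by -0.067 (limma, adjusted p = 0.432) and -0.14 (limma, adjusted p = 0.0663).

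Subunits of a channel were then compared across mice, after the mean of each strain and diet group had been removed from every gene and the 4 arrays high in cerebellar genes left out. Abcc8 and Kcnj11, which together form the neuronal channel, varied together over the 108 mice with Pearson r = 0.555 and Spearman rho = 0.532. The permutation p was 1e-05 for both, the smallest that 100000 permutations within groups can give, and 6e-05 after Benjamini-Hochberg adjustment over the 6 pairs. Without the 2 mice farthest out in Abcc8 r was 0.533, and r was above 0 in 13 of 14 groups. Over all 112 arrays r was 0.474 and rho 0.516. Abcc9 and Kcnj8, the pair known from vascular cells, had r = 0.00913 and rho = 0.00937 (permutation p = 0.930 and 0.925). Their r was above 0 in 7 of 14 groups and was 0.0550 without the 2 farthest mice.

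The pairs that cross the usual partners lay between these values. Abcc8 and Abcc9 had r = 0.321 and rho = 0.321 (permutation p = 0.00258 and 0.00224, adjusted 0.00688 and 0.00448), and r = 0.295 without the 2 farthest mice. Kcnj11 and Kcnj8 had r = 0.302 and rho = 0.320 (permutation p = 0.00344 and 0.00196, adjusted 0.00688 and 0.00448), and r = 0.257 without the 2 farthest. Both of these pairs, of which one joins the receptors and the other the pores, passed after adjustment. Abcc8 and Kcnj8 had r = 0.148 and rho = 0.152 (permutation p = 0.145 and 0.132, adjusted 0.174 and 0.158), and 0.172 without the 2 farthest. Kcnj11 and Abcc9 had r = 0.174 and rho = 0.203 (permutation p = 0.0867 and 0.0477, adjusted 0.130 and 0.0716), and 0.153 without the 2 farthest.

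**Figure D4:**
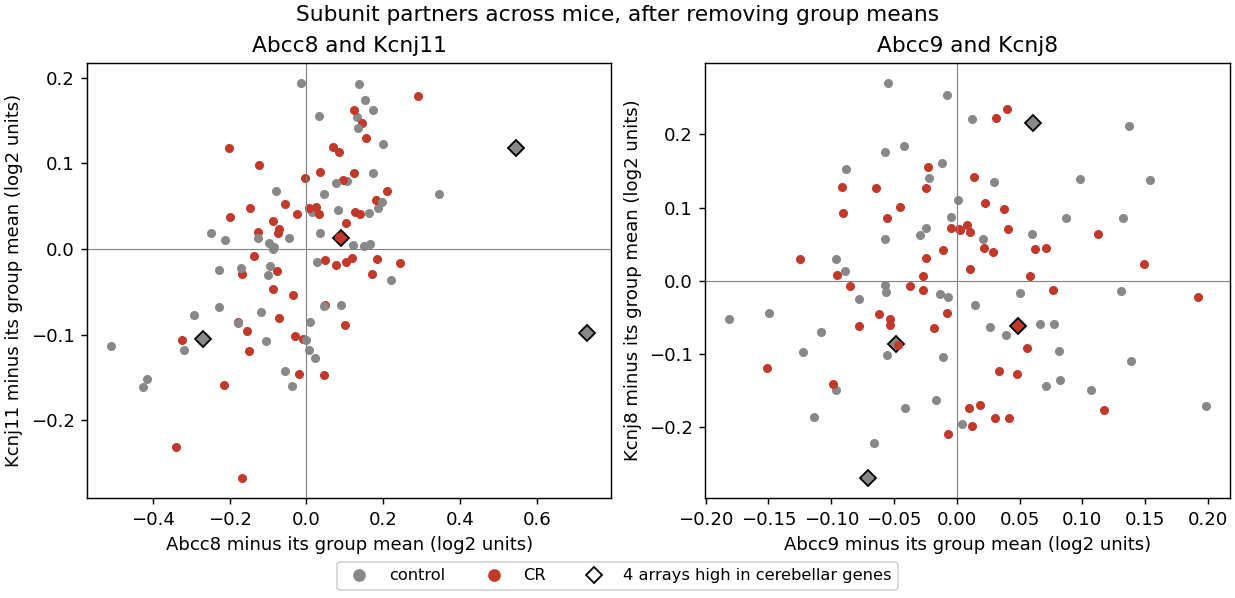
Deviation of each mouse from the mean of its strain and diet group, in log2 units, for Kcnj11 (y axis) against Abcc8 (x axis) on the left and for Kcnj8 against Abcc9 on the right, with control mice in grey, CR mice in red and the 4 arrays high in cerebellar genes as diamonds. The left cloud slopes upward (r = 0.555 over the 108 other mice), and the right one has no slope (r = 0.00913).

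Other genes followed Abcc8 more closely than its partner did. The 6 genes most like Abcc8 over these 108 mice were Adcy1, a calcium-stimulated adenylyl cyclase (r = 0.881), Satb1 (0.874), Aifm3 (0.874), Clstn1 (0.872), Cacna1a, the pore of P/Q type calcium channels (0.872), and Sel1l3 (0.871). Kcnj11 stood at rank 811 in this order, and 71 genes had r above 0.8. None of these 6 genes was called for CR by limma (adjusted p from 0.181 to 0.950). Of them, Sel1l3 had a CR difference of -0.14 ± 0.053 log2 units and Cacna1a -0.068 ± 0.033. With all 112 arrays the r of Satb1 was 0.388 and that of Clstn1 0.248, while Adcy1 kept 0.900. Such likeness is a description across arrays that share tissue composition and RNA handling, and it carries no test.

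The genes most like Kcnj11 were Emx1, a transcription factor of the dorsal forebrain (r = 0.656), Tshz3 (0.624), Cds1 (0.621), Kcnk12 (0.606), Cd34 (0.603) and Crhr1, a receptor for corticotropin-releasing hormone (0.603), and Abcc8 stood at rank 45. For Abcc9 they were Il1rap, a coreceptor of interleukin-1 (0.520), Ldlrad4 (0.493), Kcnk1, a 2-pore potassium channel (0.484), Syt12 (0.475), Plcl2 (0.473) and Supv3l1 (0.472). For Kcnj8 they were Gm13884 (0.510), Msln (0.494), Bik (0.490), Cebpe (0.487), Etv3l (0.486) and Gm12522 (0.482). Abcc9 and Kcnj8 each had 1 gene with r above 0.5, Kcnj11 had 194 and Abcc8 had 1076. Both genes with low signal thus followed few other genes across mice.

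Cell type markers were set beside the members in the same way, as descriptions. The mean of 9 excitatory neuron genes had r = 0.818 with Abcc8 and 0.551 with Kcnj11, but 0.212 with Abcc9 and 0.182 with Kcnj8. With all 112 arrays, where 2 arrays were low in these genes and highest in Abcc8, the first value was 0.0421. The mean of 14 mural cell genes, which mark pericytes and vascular smooth muscle, had r = -0.361 with Abcc8, -0.221 with Kcnj11, -0.186 with Abcc9 and -0.0210 with Kcnj8. The mean of 9 endothelial genes had r = 0.154 with Abcc9 and -0.113 with Kcnj8. Vascular markers thus had weak values with both genes of the pair known from vascular cells, of either sign with Abcc9 and negative with Kcnj8. Other lists ran against the neuronal pair: inhibitory neuron genes had r = -0.427 with Abcc8 and -0.418 with Kcnj11, and microglia genes -0.336 and -0.434. Astrocyte, oligodendrocyte, choroid plexus and cerebellar genes had r between -0.248 and 0.120 with Abcc8 and between -0.142 and 0.00325 with Kcnj11, and the r of oligodendrocyte genes with Abcc9 was 0.287. The mean of the mural genes ranged from 7.53 to 7.87 in control and from 7.54 to 7.83 in CR mice, and 1 of 14, Atp13a5, was called lower in CR by limma, as were 1.17% of all genes. In all, 13 of the 14 mural genes had a lower mean in CR, with a median difference of -0.016 log2 units, while 49.3% of all genes had a lower mean, and the part of these cells in the values of the members was not tested. The 9 excitatory genes ranged from 8.45 to 10.5 in control and from 9.48 to 10.5 in CR mice with a median of 10.3 in both, and 0 of 9 were called by limma while 1 had an unadjusted p under 0.05. With the excitatory mean as a covariate, an alternative chosen after the data were seen, the Abcc8 difference was -0.14. With the mural mean it was -0.16. These fits used all 112 arrays, over which the excitatory mean had r = 0.0421 with Abcc8. The excitatory fit could thus adjust little, and the part of these neurons in the difference was not tested.

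Lists of related genes were examined for CR and for strain, with 2.34% of all genes called for CR and 14.3% at an unadjusted p under 0.05 as the background. At that share, lists of this size hold few or no called genes. Of the other 13 inward rectifiers, 0 were called for CR by limma, 3 had an unadjusted p under 0.05, and the median difference was -0.013 log2 units, against 0.00054 for all genes. Kcnj10, the Kir4.1 channel of astrocytes, differed by 0.059 (limma, adjusted p = 0.131), its partner Kcnj16 by 0.066 (adjusted p = 0.206) and Kcnj3, a G protein-gated channel, by -0.065 (adjusted p = 0.210). Of the other 9 ABCC transporters 0 were called and 2 had an unadjusted p under 0.05, with a median of -0.0056. Abcc5, a cyclic nucleotide exporter, came nearest with 0.044 (limma, adjusted p = 0.0847), and Abcc10 had -0.033 (adjusted p = 0.337).

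Partners and trafficking factors of the channel gave 0 of 8 called and 2 with an unadjusted p under 0.05, with a median of -0.010. The 14-3-3 protein gene Ywhae differed by -0.036 (limma, adjusted p = 0.139) and the ankyrin gene Ank2 by -0.031 (adjusted p = 0.155). Copb1 was higher in CR by 0.038 (limma, adjusted p = 0.362). Trpm4, a cation channel that can assemble with SUR1, differed by -0.062 (limma, adjusted p = 0.409). Of 19 genes of glucose uptake and adenine nucleotide metabolism 0 were called and 5 had an unadjusted p under 0.05, with a median of -0.011. Pkm, pyruvate kinase, differed by -0.042 (limma, adjusted p = 0.105) and Ak1, adenylate kinase, by -0.048 (adjusted p = 0.110). None of 6 genes near 1 or the other of the 2 loci was called by limma, and 3 had an unadjusted p under 0.05, with a median of 0.028. The mean was higher in CR in 5 of the 6 and lower in 1. The 3 were St8sia1 with -0.054 (limma, adjusted p = 0.187), Cmas with 0.049 (adjusted p = 0.231) and Nucb2 with 0.072 (adjusted p = 0.327).

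Strain differences were frequent in these lists, as among all genes. Among control mice 5 of the 13 other inward rectifiers, 6 of 9 ABCC transporters, 6 of 8 partners, 16 of 19 metabolic genes and 6 of 6 genes near the loci were called, against the background of 65.4%. Kcnj10 had a range of 0.75 log2 units, from 10.1 in Balbc/J to 9.36 in C57BL6/J (limma, adjusted p = 1.21e-21), and Kcnj16 one of 0.60 (adjusted p = 6.56e-11). Abcc10 ranged over 0.40, with 129S1/SvImJ highest and C57BL6/J lowest (limma, adjusted p = 1.29e-12). The ranges of 0.35 for Kcnj11 and 0.27 for Abcc9 compare with 0.27 for the median gene. Within groups the residual SD of Kcnj11 was larger than in 20.7% of genes and that of Abcc9 than in 5.52%.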

How the data were processed

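Cortex RNA of 112 mice was measured on Affymetrix Gene 1.0 ST arrays. The deposited log2 values were made by the authors with RMA-Sketch at gene level in Affymetrix Expression Console (versions not given in the sources used). A shift of all genes on an array is removed by RMA. The medians of the arrays ran from 7.14 to 7.26, 0 values were missing, 0 arrays were identical and 0 columns of samples were unused. The number of arrays limits the precision. Of 35556 probe sets, 21789 had exactly 1 gene symbol, 1621 several and 12146 none, and 19855 of the 19938 genes tested were matched to RefSeq by gene number. No filter on signal was applied.

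A mean for each of 14 groups was fitted by lmFit and eBayes (limma 3.58.1, R 4.3.3), with two-sided tests on 98 residual degrees of freedom and 4.62 prior ones. The CR effect was the mean of 7 within-strain differences, and Benjamini-Hochberg adjustment ran over all genes at a threshold of 0.05. Also used were data.table (version 1.17.8), matplotlib 3.10.9, numpy 2.4.6 and Python 3.11.15. The fitting steps were tested on simulated data. The members and gene lists were chosen with earlier results of these data known. Named were the members, the 6 genes most like each and up to 4 genes per list by smallest p. Alternatives were other centring, normalization and filtering, array weights, a replicate block, covariates, and leaving out arrays or strains. The hybrid among CR mice and the excitatory neuron covariate were added after the data were seen.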

Additional observations from a re-analysis of the deposited data

Results flagged for a closer look

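The Abcc8 signal of C57BL6/J control replicate 6, at 9.33 log2 units, lay far from the other 7 mice of its group, the nearest of which was at 8.75. Its gap made up 0.603 of the range of the group, above Dixon's 95% critical value for 8 mice. Among the 56 groups examined (4 genes in 14 groups of mice) this was the 1 past the limit, and chance alone passes it in about 1 of 20. The same array was high in cerebellar genes, as described above, and the part of that tissue in this value was not tested.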

How the results depend on the processing

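The CR differences across strains of all 4 genes kept their sign under the alternatives run, 19 for Abcc8 and Kcnj11 and 18 for Abcc9 and Kcnj8, which a filter on signal under the median gene leaves out. Abcc8 lay between -0.16 and -0.11 and Kcnj11 between -0.059 and -0.031 (limma, adjusted p from 0.117 to 0.554). Of 495 recomputed values with a test, 460 kept their direction and their side of the threshold, 26 gained a call, 4 lost one and 5 changed sign without a call. The latter were the Kcnj11 difference of the hybrid in control mice with quantiles (0.0074) and, without the 2 or the 4 arrays, the CR differences in B6C3F1/J of Abcc9 (0.0042) and Kcnj8 (0.00070). The 61 values of Abcc8 under CR have no test. Each moved by less than the SD between mice, 0.194 log2 units. That SD is larger than the difference across strains, -0.13, so this bound cannot show that the values were stable. In single strains the alternatives ran from -0.17 to -0.060 in C57BL6/J and from -0.15 to -0.061 in B6C3F1/J.

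The strains differed in Abcc8 among control mice with array weights (limma, adjusted p = 0.00165), without the 2 arrays highest in cerebellar genes (0.0140) and without all 4 (0.00833), and in Kcnj8 with array weights (0.0285). Among CR mice Abcc8 passed with the filter (limma, adjusted p = 0.0435), array weights (0.000301), the 2 or 4 arrays left out (0.0133 and 0.0114), the cerebellar or mural covariate (0.0279 and 0.00840) and without C3H/HeJ (0.0472) or B6C3F1/J (0.0215). Kcnj8 lost its call among CR mice without 129S1/SvImJ (0.118) or C57BL6/J (0.0839). For the hybrid against its parents in CR mice, Kcnj11 lost its call with median centring (0.092 log2 units) and the excitatory covariate (0.10). Abcc9 gained one with centring (-0.12), quantiles (-0.10), array weights (-0.094) and the excitatory covariate (-0.097). Kcnj8 gained one with centring (-0.17), quantiles (-0.16), the excitatory covariate (-0.15) and without the 4 arrays (-0.14). Abcc8 gained one with array weights (0.24) and without the 4 arrays (0.19), and in control mice with array weights (0.22) and the mural covariate (0.23). The causes were not tested.

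Replicate numbers were not treated as pairing control and CR mice, and whether they do was not tested. Over 56 pairs of the same number the correlation of deviations had a median of 0.113 and ran from -0.481 to 0.373. It was above 0.1 in 31 pairs, and 12 mice matched best with their own number. With the replicate block, 550 genes were called for CR against 467, the strains differed in Abcc8 among CR mice (limma, adjusted p = 0.0237) and the hybrid in Kcnj8 (-0.14).

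The number of genes called for CR, 467, was 1193 with array weights, 870 and 875 without the 2 or 4 arrays, 704 and 833 with the cerebellar or excitatory covariate, 204 without 129S1/SvImJ, 306 without Balbc/J, 175 without CBA/J and 246 without DBA/2J. Genes called for the interaction ran from 0 to 33 against 8, and for strains among control mice from 8392 (with the filter) to 15209 against 13047.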
